A study of Cucumis sativus with 6 samples.

Results

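The genes followed here are 5 cucumber genes whose protein descriptions name them as dormancy-associated proteins or as the stem-specific protein TSJT1. They were picked by gene identifier from a deposited table of 1589 genes that differed between Cshec2 mutant and wild type buds, and these members divide into 2 dormancy-associated genes and 3 TSJT1 genes. Female buds of cucumber (Cucumis sativus) were collected 7 days before anthesis from Cshec2 mutant plants, given as Cshec2-/- in the labels, and from wild type plants, with 3 libraries per genotype. CsHEC2 encodes a transcription factor that the series title links to fruit wart formation and to cytokinin biosynthesis. The labels do not say how many lines or plants went into a library. The members were chosen with their values in these libraries known, and the whole table had been selected for a difference between the same libraries, so the levels below are a description and no test is read from them.

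Dormancy-associated proteins of the DRM1 family are small plant proteins whose transcripts are high in resting buds and low in growing tissue. In strawberry a related transcript was described as repressed by auxin, which is the origin of the name auxin-repressed protein. TSJT1 was first described as a stem transcript of tobacco, and its relatives carry the aluminium-induced protein domain and a glutamine amidotransferase-like fold. In Arabidopsis, genes of both families are among those whose transcripts rise in darkness and when sugar runs short, and some are used as markers of low carbon supply. None of this was measured here, and the word starvation comes from that background and not from the bud samples.

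The annotation fits the names. In the deposited table the Pfam entry Dormancy/auxin associated protein is given for 3 genes, of which 2 are members. The entry Aluminium induced protein is given for 4 genes, of which 3 are members. Csa6G518000 is described as dormancy-associated protein 1 (DRM1) and as an auxin-repressed 12.5 kDa protein. Csa3G646010 is described as dormancy-associated protein homolog 4. Csa6G517220, Csa6G154500 and Csa3G149950 are all described as stem-specific protein TSJT1. The pair of genes with the same descriptions that are not members are Csa1G569400 (dormancy-associated protein homolog 3) and Csa4G638320 (TSJT1), and all 7 genes so described are covered below. How reads shared by similar sequences were assigned is not known, which leaves the separate values of family genes uncertain to that extent.

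The deposited value is a normalised expression signal with no unit in the header, so levels are compared between libraries of one gene and never between genes. Read depth is unknown. Summed over the table, the values came to between 23592 and 24173 in the mutant libraries and between 41126 and 59342 in the wild type libraries. The wild type libraries also differed more among themselves, with a median SD of log2 values of 0.28 in wild type against 0.13 in the mutant. Every library is therefore given for the members. In bulk buds, fewer cells that express a gene and less RNA per cell cannot be told apart.

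**Figure D1:**
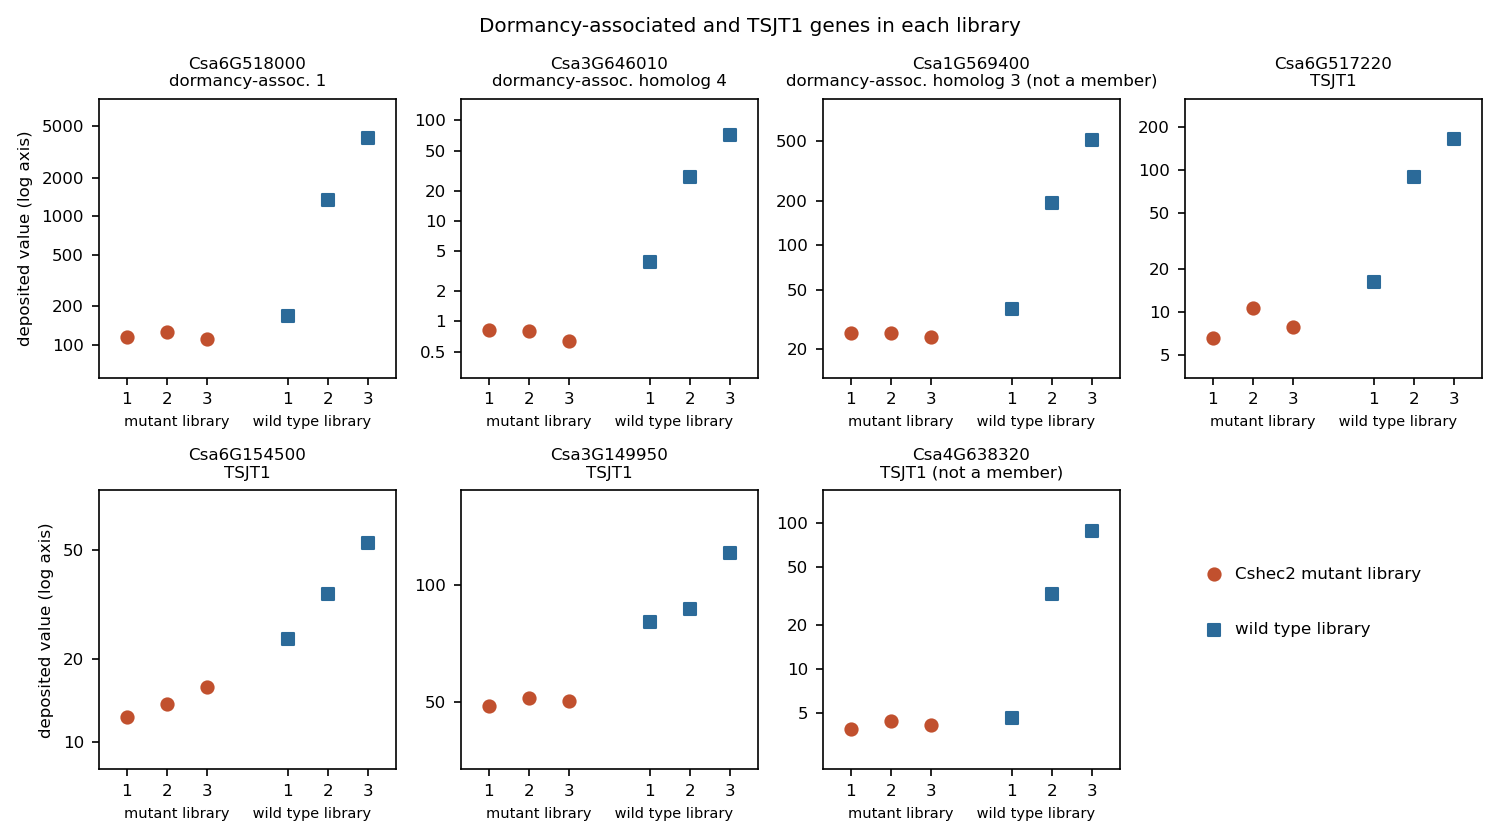
Deposited value (log axis, a separate scale in each panel) of the 5 members and of the other 2 genes described alike in each mutant library (circles) and wild type library (squares). The mutant values span at most 1.61-fold (Csa6G517220), while for 5 of the 7 genes wild type libraries 2 and 3 lie far above wild type library 1.

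Csa6G518000, the DRM1 gene, measured 116, 127 and 112 in mutant libraries 1 to 3, against 167, 1332 and 4088 in wild type libraries 1 to 3. The mutant libraries were close together, and the wild type libraries did not resemble one another. Wild type library 1 lay 1.32-fold above the highest mutant library, and wild type library 3 lay 34.5-fold above the mutant mean. The ranges did not overlap, but the gap between the genotypes was small beside the gap within wild type, where library 3 was 24.4-fold above library 1. On the deposited scale the mean was 119 ± 7.66 in the mutant and 1862 ± 2014 in wild type (SD, n = 3 each), so the wild type SD was larger than the wild type mean.

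This gene alone made up 0.493%, 0.528% and 0.464% of the summed values in the mutant libraries, against 0.407%, 3.01% and 6.89% in wild type libraries 1 to 3. In wild type library 1 its share was therefore below that of each mutant library, although its value was higher there. The sums come from a table made mostly of genes listed as lower in the mutant, so these are not shares of a whole transcriptome. The sum of wild type library 3 exceeded that of wild type library 1 by 18216, of which 3921 came from Csa6G518000.

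The homolog 4 gene, Csa3G646010, measured 0.811, 0.805 and 0.632 in the mutant libraries, against 3.87, 27.6 and 71.4 in wild type libraries 1 to 3. Here wild type library 1 stood clear of the mutant, 4.77-fold above the highest mutant library. That was the widest such gap among the 7 genes. Wild type library 3 was 18.5-fold above library 1, and the means were 0.749 ± 0.102 in the mutant and 34.3 ± 34.2 in wild type (SD, n = 3 each). Values below 1 are compressed by the pseudocount of 1 added before taking logs. The log2 difference (mutant minus wild type) was -3.63 (SE 0.89) with that pseudocount and -4.56 with a pseudocount of 0.1.

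The third dormancy-associated gene, Csa1G569400, is not a member but behaved like Csa6G518000. It measured 25.8, 25.7 and 24.2 in the mutant libraries, against 37.5, 194 and 514 in wild type libraries 1 to 3. Its mutant values spanned 1.06-fold from lowest to highest, and its wild type library 3 lay 13.7-fold above library 1. All 3 dormancy-associated genes of the table thus had their lowest wild type value in library 1 and their highest in library 3.

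Among the TSJT1 genes, Csa6G517220 showed the same shape. It measured 6.64, 10.7 and 7.86 in the mutant libraries, against 16.3, 90.1 and 166 in wild type libraries 1 to 3. It had the least even mutant values of the 7 genes, with 1.61-fold between the lowest and the highest. Wild type library 1 lay 1.53-fold above the highest mutant library and wild type library 3 lay 10.2-fold above library 1 (means 8.39 ± 2.07 in the mutant and 90.8 ± 74.8 in wild type, SD, n = 3 each).

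The remaining TSJT1 members were more even in wild type. Csa6G154500 measured 12.3, 13.7 and 15.8 in the mutant libraries, against 23.7, 34.5 and 53.1 in wild type libraries 1 to 3, and wild type library 3 was 2.24-fold above library 1. Csa3G149950 measured 48.6, 51.2 and 50.1 in the mutant libraries, against 80.3, 86.5 and 120.5 in wild type libraries 1 to 3, and wild type library 3 was 1.50-fold above library 1. For both genes wild type library 1 already stood above every mutant library, by 1.50-fold for Csa6G154500 and by 1.57-fold for Csa3G149950. The means were 13.9 ± 1.74 in the mutant and 37.1 ± 14.9 in wild type for Csa6G154500. They were 49.9 ± 1.29 in the mutant and 95.8 ± 21.6 in wild type for Csa3G149950 (SD, n = 3 each).

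Csa4G638320, the TSJT1 gene outside the members, was the closest of all to having no difference from wild type library 1. It measured 3.90, 4.39 and 4.16 in the mutant libraries, against 4.65, 32.8 and 88.7 in wild type libraries 1 to 3. Wild type library 1 lay 1.06-fold above the highest mutant library, while wild type library 3 lay 19.1-fold above library 1. The 4 TSJT1 genes therefore fell into an uneven pair (Csa6G517220 and Csa4G638320) and a more even pair (Csa6G154500 and Csa3G149950).

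Set against the table, the members' steps within wild type were large for 3 of 5. Wild type library 3 was at least 10-fold above library 1 for 3 of the 5 members and for both other family genes, against 2.2% of all genes (35 of 1589). It was at least 2-fold above for 4 of the 5 members, against 20.1% of all genes. Only 5 genes of the table had a larger log2 step from library 1 to library 3 than Csa6G518000, 14 had a larger step than Csa3G646010 and 27 a larger one than Csa6G517220. By contrast 215 genes had a larger step than Csa6G154500 and 414 a larger one than Csa3G149950. The median log2 step over all genes was 0.08, against 3.27 over the 5 members. Since the uneven wild type values were part of the choice of these genes, these positions describe them and support nothing further.

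**Figure D2:**
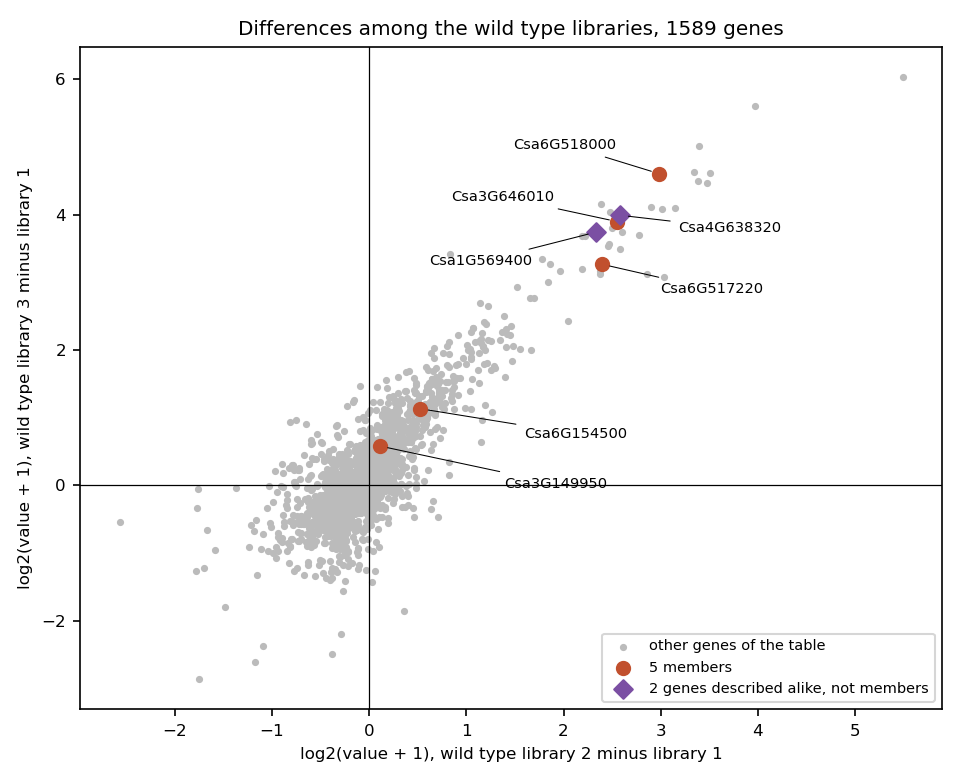
Log2(value + 1) of wild type library 2 minus library 1 (x axis) and of wild type library 3 minus library 1 (y axis) for every gene of the table (grey), with the 5 members (red circles) and the other 2 genes described alike (purple diamonds). Of the 7 genes, 5 lie in the sparse upper right, and Csa6G154500 and Csa3G149950 lie within or near the main cloud.

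Library 2 sat between the other wild type libraries for all 7 genes. It was at least 5-fold above library 1 for 3 of the 5 members and both other family genes, against 1.76% of all genes. The steps were 7.96-fold for Csa6G518000, 7.14-fold for Csa3G646010 and 5.51-fold for Csa6G517220. For Csa6G154500 the step was 1.46-fold and for Csa3G149950 it was 1.08-fold. The pattern of library 1 lowest and library 3 highest, present in all 5 members, was present in 34.1% of all genes. The labels give no date, plant or position for a library that would separate wild type library 1 from libraries 2 and 3.

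The mutant libraries were closer together. The SD of log2(value + 1) in the mutant was 0.09 for Csa6G518000, 0.09 for Csa3G646010, 0.31 for Csa6G517220, 0.17 for Csa6G154500 and 0.04 for Csa3G149950. In wild type the same measure was 2.34, 1.98, 1.69, 0.57 and 0.31 for those genes in that order. The wild type SD was the larger one for all 5 members and for 78.5% of all genes.

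With all 6 libraries the log2 difference, mutant minus wild type on log2(value + 1), was -3.02 (SE 1.04) for Csa6G518000, -2.79 (SE 0.77) for Csa6G517220, -1.28 (SE 0.29) for Csa6G154500 and -0.90 (SE 0.18) for Csa3G149950, beside the value for Csa3G646010 above. The members' median was -2.79, against -0.77 over all genes. In a limma fit over all genes of the table, with Benjamini-Hochberg adjustment and a threshold of 0.05, all 5 members were called lower, as were 74.3% of all genes. All mutant values lay below all wild type values for the 5 members and for 75.7% of all genes. Nothing is read from these counts, because the table and the members were chosen on this contrast.

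The size of the difference depended on the control libraries for the uneven genes and less for the even ones. This is built in, because genes were called uneven or even by the same wild type values. The values below give only its size. Against wild type library 1 alone, the log2 difference was -0.50 for Csa6G518000, -1.48 for Csa3G646010 and -0.91 for Csa6G517220. Without that library it was -4.29, -4.70 and -3.74 for those genes in that order. For Csa6G154500 the value was -0.73 against library 1 alone and -1.56 without it, and for Csa3G149950 it was -0.67 and -1.02. Against library 1 alone the 5 members thus lay between -0.50 and -1.48, where with all libraries they lay between -0.90 and -3.63. In the fit to library 1 alone the spread is that of the mutant libraries, which the lone control is taken to share.

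Csa6G518000 lost its call in limma when a library was left out, except for wild type library 1. Its log2 difference was then between -3.08 and -2.99 without a mutant library, -2.80 without wild type library 2 and -1.99 without wild type library 3. The other 4 members kept their call when any 1 library was left out. Over all genes, 823 to 1236 of 1589 were called lower in these settings, against 1180 with all libraries. Nothing is read from the members' calls, since they were chosen on this contrast. Dividing each library by its median ratio over the table (median-of-ratios scaling) raised the median log2 difference of all genes by 0.74, and left 1 of 5 members called lower, against 14.2% of all genes. That scaling centres a table made mostly of genes listed as lower. After it the log2 difference was -2.10 for Csa6G518000, -2.98 for Csa3G646010, -1.92 for Csa6G517220, -0.40 for Csa6G154500 and 0.01 for Csa3G149950, so the direction of Csa3G149950 turned. Wild type library 1 then measured 131 for Csa6G518000, below the lowest mutant library at 152. For Csa3G646010 it stayed above, at 3.02 against a highest mutant value of 1.13, and this was the 1 member of 5 whose genotypes still did not overlap, against 21.8% of all genes with the mutant below wild type. The log2 step from wild type library 1 to library 3 was smaller after scaling for every member, at 4.31 for Csa6G518000 (4.60 as deposited), 3.53 for Csa3G646010 (3.89) and 2.95 for Csa6G517220 (3.27). For the even members it was 0.84 for Csa6G154500 (1.13 as deposited) and 0.29 for Csa3G149950 (0.58).

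**Figure D3:**
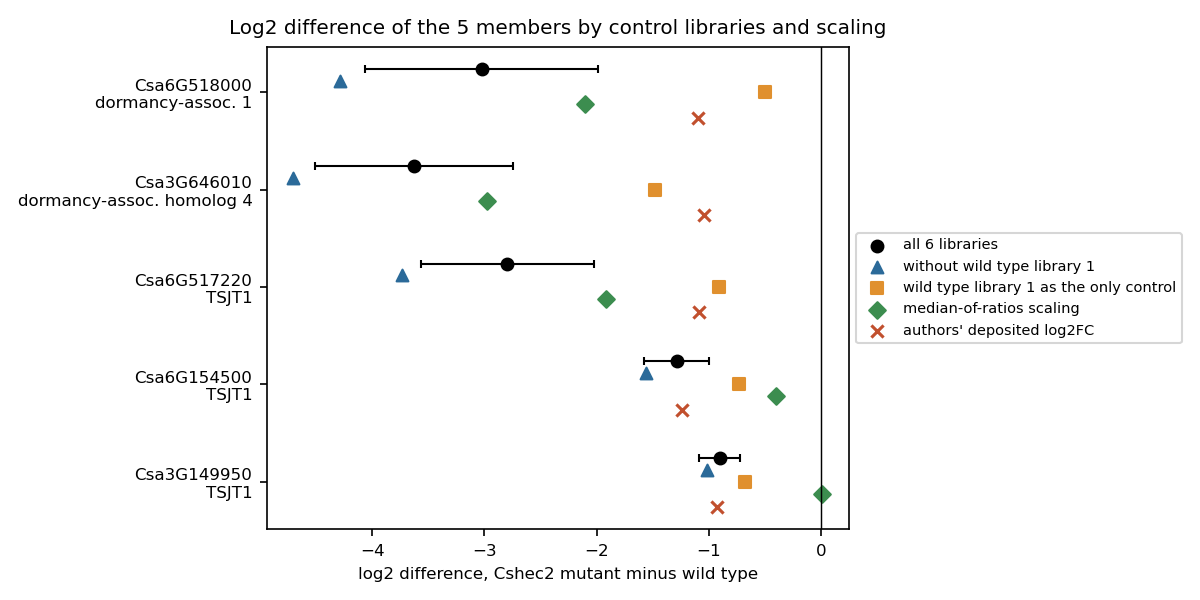
Log2 difference of each member (mutant minus wild type, x axis) with all 6 libraries (black, bar = SE), without wild type library 1, with that library as the only control, after median-of-ratios scaling, and in the authors' deposited table (crosses). For the upper 3 genes the crosses, between -1.09 and -1.04, lie closer to the comparison with wild type library 1 than to that with all libraries.

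The authors' deposited table gives log2 fold changes that vary little among the members. They were -1.09 for Csa6G518000, -1.04 for Csa3G646010, -1.09 for Csa6G517220, -1.24 for Csa6G154500 and -0.93 for Csa3G149950 in the authors' deposited table. The log2 ratio of the mutant mean to the wild type mean, computed here from the deposited values, was -3.97, -5.52, -3.43, -1.41 and -0.94 for the same genes in that order. Both sources lay close together for the even genes and far apart for the uneven ones. The FDR in the authors' deposited table was smallest for the even genes, at 3.57e-07 for Csa3G149950 and 2.78e-06 for Csa6G154500. For Csa6G518000, Csa3G646010 and Csa6G517220 the authors' deposited table has 0.00305, 0.0032 and 0.00395.

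Other genes with uneven wild type values had the same gap. Among the 82 genes of the table whose wild type log2 values had an SD of at least 1, the absolute log2 fold change in the authors' deposited table was smaller than the ratio of means by at least 1 for 63 genes (76.8%). Among the 1204 genes with an SD under 0.5 this was so for 40 genes (3.32%). The labels give neither the version nor the settings of the comparison behind that column. Whether they account for the gap was not tested.

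To find genes that varied like each member, profiles of log2(value + 1) over the 6 libraries were centred, and the root mean square difference from the member's profile was taken as the distance in log2 units. Nearness in 6 libraries is a description. For Csa6G518000 the nearest described gene was Csa1G050360, glyoxysomal malate synthase, an enzyme of the glyoxylate cycle that turns stored lipid into sugar precursors, at a distance of 0.21. It measured 2.70, 2.77 and 2.10 in the mutant libraries, against 2.86, 39.3 and 86.0 in wild type libraries 1 to 3. Next came the NAC transcription factor gene Csa3G101810 (NAC072, a stress-responsive regulator in Arabidopsis) at 0.214, the acyltransferase gene Csa3G732470 (DCR, which acts in cutin formation in Arabidopsis) at 0.266, the beta carbonic anhydrase gene Cucumis_sativus_newGene_1375 at 0.272, and the dormancy-associated gene Csa1G569400 at 0.343.

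For Csa3G646010 the nearest gene was Csa2G023940, described as a linoleate 9S-lipoxygenase, an enzyme that oxidises fatty acids, at a distance of 0.164. It measured 59.1, 79.7 and 59.2 in the mutant libraries, against 169, 1265 and 2940 in wild type libraries 1 to 3. A further 9S-lipoxygenase gene, Csa2G024440, lay at 0.295 and Csa3G101810 at 0.292. The members Csa6G518000 and Csa6G517220 came after these, at 0.367 and 0.491.

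For Csa6G517220 the nearest were the cytochrome P450 gene Csa5G224130 (CYP714A1) at 0.203, the NAC gene Csa6G382950 at 0.231, Csa1G569400 at 0.268, the lipoxygenase gene Csa2G023900 at 0.299, and Csa6G395130 at 0.311. The last is described as the alpha subunit of 2-oxoisovalerate dehydrogenase, which breaks down branched-chain amino acids. It measured 5.90, 7.27 and 4.85 in the mutant libraries, against 8.51, 42.3 and 85.9 in wild type libraries 1 to 3. Neighbours of all 3 uneven members thus shared the low library 1, by the way they were chosen.

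The more even members had other neighbours. For Csa6G154500 these were the purine permease gene Csa6G014490 (AZG1) at 0.0887, the trehalose-phosphate synthase gene Csa5G602180 (TPS9) at 0.0997, the glucosyltransferase gene Csa4G618500 at 0.112, the asparaginase gene Csa1G570100 at 0.12 and the ubiquitin ligase gene Csa6G448100 (RZFP34) at 0.126. Csa5G602180 measured 7.70, 9.69 and 9.23 in the mutant libraries, against 13.3, 21.5 and 34.3 in wild type libraries 1 to 3. For Csa3G149950 the 5 nearest genes were Csa1G024920 (alpha-dioxygenase 2), Csa4G052730 (B2 protein), Csa1G015740 (acyl-activating enzyme 17), Csa4G618490 (zinc transporter 5) and Csa4G051470 (WRKY41), at distances between 0.0569 and 0.0684. Small distances are easier to reach for a gene whose values vary little.

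**Figure D4:**
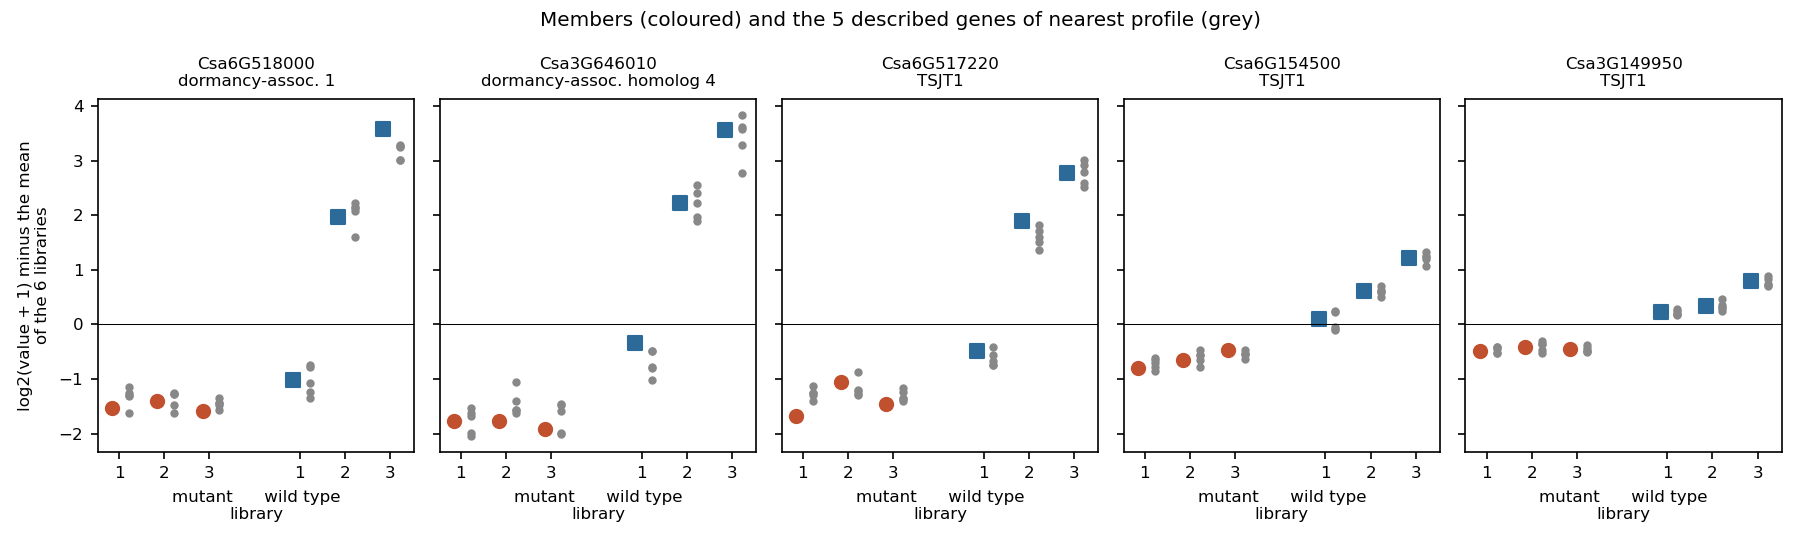
Centred log2(value + 1) in each library for the 5 members (coloured, mutant circles and wild type squares) and for the 5 described genes nearest to each (grey). The 3 uneven members and their neighbours drop to or below zero in wild type library 1, and the 2 even members and their neighbours stay close to zero or above it there.

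Within the family, distances between uneven genes did not follow the descriptions, and they reached 0.655 (Csa3G646010 and Csa4G638320). Genes were called uneven or even by the same wild type values that enter the distance, so nearness within each kind is built in. Csa1G569400 and Csa4G638320, a dormancy-associated and a TSJT1 gene, were 0.161 apart, the smallest distance among the 7 genes. Csa6G517220 was 0.427 from Csa6G518000 and 1.27 from the TSJT1 gene Csa3G149950. The even TSJT1 genes Csa6G154500 and Csa3G149950 were 0.267 apart. All 3 dormancy-associated genes were uneven, and the TSJT1 genes divided into 2 uneven and 2 even genes.

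Other genes tied to sugar shortage were looked for by the keywords of their descriptions. The sugar starvation list took in trehalose phosphate enzymes, branched-chain amino acid and proline breakdown, beta-galactosidases, bZIP factors of the sugar-responsive type, EXORDIUM proteins and SNF1-related kinase subunits. Of its 16 genes, 4 passed limma as higher in the mutant, 9 as lower and 3 did not pass, against 18.4% higher and 74.3% lower over all genes. The list's median log2 difference was -0.75, against -0.77 over all genes. After median-of-ratios scaling 4 were higher and 1 was lower, and without mutant library 2 or without mutant library 3 there were 5 lower genes. Of all 1589 genes, 293 were higher and 225 lower after scaling. Without mutant library 2 there were 823 lower genes in the table, and without mutant library 3 there were 850. Against wild type library 1 alone 2 were higher and 7 lower.

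The list's wild type steps were smaller than those of the uneven members, but some of its genes also rose in library 3. The list's median log2 step from wild type library 1 to library 3 was 0.15, against 0.08 for all genes. It was 3.74 for the 7 dormancy and TSJT1 genes. Of those, 5 were chosen with their wild type values known, so nothing is read from that gap. The list's step ranged from -0.71 to 3.19. In library 3, 6 of the 16 genes were at least 2-fold higher, against 20.1% of all genes. At least 10-fold higher was 1 gene of 16, against 2.2% of all genes, and it was the branched-chain gene Csa6G395130 described above. Csa5G643300, described as proline dehydrogenase 2, which starts proline breakdown, was the next, and was chosen after its values were seen. It measured 0.779, 0.458 and 0.660 in the mutant libraries, against 1.23, 5.08 and 9.38 in wild type libraries 1 to 3.

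**Figure D5:**
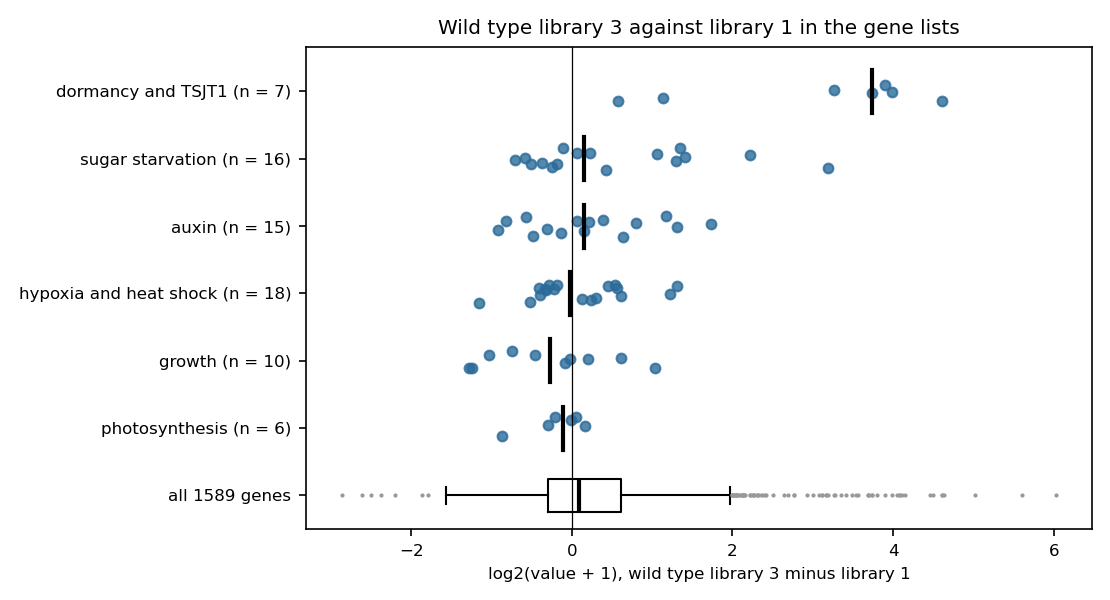
Log2(value + 1) of wild type library 3 minus library 1 (x axis) for each gene of 6 keyword lists (points, with the list's median as a black bar) and for all genes of the table (box from the 25th to the 75th percentile, whiskers to 1.5 times that range). The dormancy and TSJT1 genes have a median of 3.74, and the medians of the other lists lie between -0.28 and 0.16. Of the 7 dormancy and TSJT1 genes, 5 were chosen with these values known, so the gap is a description.

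The genes of that list with the smallest p-values were even in wild type. Ranking by p-value favours such genes, because the p-value is computed from the spread within the genotypes. The beta-galactosidase gene Csa1G587980, which acts on galactose residues of the cell wall, measured 5.27, 7.34 and 8.61 in the mutant libraries, against 35.1, 30.8 and 32.6 in the wild type libraries (log2 difference -2.09, SE 0.19). The trehalose-phosphate synthase gene Csa4G622880 went the other way, at 62.8, 66.9 and 69.7 in the mutant libraries, against 38.9, 35.5 and 40.7 in the wild type libraries (log2 difference 0.78, SE 0.13). The bZIP factor genes Csa6G495860 (bZIP2) and Csa3G860320 (bZIP44) were also higher, with log2 differences of 0.73 (SE 0.14) and 0.55 (SE 0.13). The genotypes did not overlap for these genes, which were picked by small p-values, and they moved in both directions. Over all genes, 75.7% had every mutant value below every wild type value, which is a background for Csa1G587980 only. No such share is given for the other direction, so the non-overlap of the higher genes has no background beside it. The 1 autophagy gene of the table, Csa7G419640 (ATG8i), which marks membranes formed when cells recycle their contents, did not pass. It measured 30.0, 31.1 and 27.2 in the mutant libraries, against 33.1, 39.2 and 63.8 in wild type libraries 1 to 3.

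Since DRM1 relatives are known as auxin-repressed, the auxin list was set beside them. Of its 15 genes 3 passed as higher, 11 as lower and 1 did not pass, against 18.4% higher and 74.3% lower over all genes. The list's median log2 difference was -0.86, against -0.77 over all genes. Its median step from wild type library 1 to library 3 was 0.16, against 0.08 over all genes. After median-of-ratios scaling 3 were higher and 3 lower, against 293 higher and 225 lower of all 1589 genes. Csa7G398090, described as the auxin-induced protein ARG2, measured 84.3, 86.3 and 105 in the mutant libraries, against 254, 624 and 844 in wild type libraries 1 to 3. The auxin-responsive SAUR genes Csa3G646510, Csa6G092560 and Csa7G009150, of a family whose members promote cell expansion in Arabidopsis, had log2 differences of -1.79 (SE 0.30), -1.71 (SE 0.28) and -1.15 (SE 0.18). The 3 higher genes are named here after their values were seen. They were the auxin transporter-like genes Csa2G264590 and Csa6G011040 and the auxin response factor gene Csa6G518210. Their log2 differences were 0.83 (SE 0.15), 0.81 (SE 0.15) and 0.74 (SE 0.14).

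In the growth list, 2 genes were higher, 7 lower and 1 did not pass of 10, against 18.4% higher and 74.3% lower over all genes. The list's median log2 difference was -0.64, against -0.77 over all genes. After median-of-ratios scaling 2 were higher and 0 lower, with 3 or 4 lower when a mutant library was left out. The whole table also lost lower calls, with 225 of 1589 left after scaling and 823 to 860 without a mutant library. The keywords also took in 2 cyclin-dependent kinase inhibitors, which restrain division. The expansin genes Csa5G636630 and Csa1G522540, whose products loosen cell walls, had log2 differences of -2.08 (SE 0.35) and -0.91 (SE 0.17). Csa5G636630 was highest in wild type library 1, and its values were 4.53, 5.62 and 7.76 in the mutant libraries, against 41.3, 31.5 and 16.5 for wild type. That order of the wild type libraries was the reverse of the members'. The ribosomal protein genes Csa5G586000 (L3) and CsaUNG024960 (L23) were higher, by 0.71 (SE 0.15) and 1.03 (SE 0.28) on the log2 scale. The ribosomal protein gene Csa7G089210 (L38) was lower, with a log2 difference of -0.56 (SE 0.17), and is named here after its values were seen.

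The hypoxia and heat shock list was matched by keywords that also took in homologs of an ethylene-forming oxidase and a cinnamyl alcohol dehydrogenase. Of its 18 genes 2 were higher, 13 lower and 3 did not pass, against 18.4% higher and 74.3% lower over all genes. The median-of-ratios scaling left 2 higher and 3 lower, against 293 higher and 225 lower of all 1589 genes. The list's median step from wild type library 1 to library 3 was -0.02, ranging from -1.15 to 1.31. In library 3, 0 of 18 genes were at least 10-fold higher, against 2.2% of all genes. The part of sample handling in the members' wild type values was not tested. Csa2G238880, described as non-symbiotic hemoglobin 1, measured 2.53, 1.99 and 2.36 in the mutant libraries, against 84.4, 63.2 and 72.6 in the wild type libraries. Wild type was even for this gene, unlike for the uneven members. It was picked by a small p-value, which favours genes with even values. The other genes of smallest p, Csa3G135730, Csa3G135720 and Csa3G135740, are such oxidase homologs, with log2 differences of -1.10 (SE 0.18), -1.42 (SE 0.15) and -1.31 (SE 0.16). The 2 higher genes went the other way and are named here after their values were seen. They were Csa7G322060 (alcohol dehydrogenase 1) and Csa4G312240 (pyruvate decarboxylase 1). Their log2 differences were 0.87 (SE 0.19) and 0.47 (SE 0.13).

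The photosynthesis list held 2 higher and 4 lower genes of 6, against 18.4% higher and 74.3% lower over all genes. The list's median log2 difference was -0.59, against -0.77 over all genes. The median-of-ratios scaling left 2 higher and 0 lower, against 293 higher and 225 lower of all 1589 genes. Its step from wild type library 1 to library 3 had a median of -0.11. The chlorophyll a-b binding protein gene Csa3G664560 and the photosystem II gene Csa2G010330 had log2 differences of -1.27 (SE 0.24) and -0.67 (SE 0.17), and the translocon genes Csa1G600170 and Csa1G600160 had 1.06 (SE 0.16) and 0.90 (SE 0.14). A table of genes selected for differing between the genotypes cannot check the tissue label, since markers alike in both would be left out of it. The 1 carpel marker matched, Csa5G606780 (CRABS CLAW, a carpel regulator), measured 253, 233 and 266 in the mutant libraries, against 168, 137 and 110 in wild type libraries 1 to 3. Keywords for pollen and anther genes matched 0 genes. The part of organ or tissue makeup in the members' wild type values was not tested.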

How the data were processed

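RNA-seq of cucumber female buds was analysed from 1 deposited table with 3 Cshec2 mutant and 3 wild type libraries, which the design text calls biological replicates. The submitters' processing notes name HISAT2, HISAT and DESeq2, and neither a role nor a version. The genome build is not given in the sources used here. The deposited values are a normalised signal made by the authors, without a unit in the file headers; they are not whole numbers, so depth is unknown. The table also holds the authors' FDR (an adjusted p-value) and the authors' log2 fold change, and all 1589 genes had been selected by the authors. Identifiers matched in the RefSeq gene table numbered 0.

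From these values, the genotypes were compared here by limma 3.58.1 (trend, R 4.3.3) on log2(value + 1), unfiltered and adjusted over all genes, after the script was tested on simulated data. Profile distances used genes with a Swiss-Prot description and a mean value of at least 1. The members, lists and tests were chosen with earlier results of these data known. Named genes were the members, the other genes so described, the 5 nearest to each member, and up to 4 passing genes of smallest p per list. Further genes were named after their values were seen, as stated where they appear. Alternatives were median-of-ratios scaling, no trend, a minimum mean of 1, pseudocounts of 0.1 or 0.5, a replicate block, each library left out, and wild type library 1 as sole control.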

Additional observations from a re-analysis of the deposited data

How the results depend on the processing

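Alternative values were computed for the table counts, the list counts and the members' log2 differences. Of these 273 values, 250 stayed within the limit used, 22 moved past it and 1 log2 difference reversed. Part of the 250 could not move, so their number is no measure of robustness. Leaving out the trend, a minimum mean and a replicate block each keep a member's log2 difference as it was by construction. No member was called higher under any setting. The limit was 1.5 times for a count and, for a log2 difference, the SD of the gene's wild type log2 values, which is wide for the uneven members. Median-of-ratios scaling reversed Csa3G149950 (0.014, against -0.90) and moved Csa6G154500 to -0.40. It left 225 lower genes in the table in place of 1180 (and 293 higher, as before), 1 of 5 members, 1 of 7 dormancy and TSJT1 genes, and 1 sugar starvation, 0 growth, 3 auxin, 3 hypoxia and heat shock and 0 photosynthesis genes lower. By its construction it takes calls from lower genes in a table made mostly of them. Against wild type library 1 alone, the log2 difference was -0.50 for Csa6G518000, -1.48 for Csa3G646010 and -0.91 for Csa6G517220, and 2 sugar starvation genes were higher. Leaving out 1 library gave 823 to 1236 lower genes in the table, 4 to 7 lower dormancy and TSJT1 genes, 5 to 11 lower sugar starvation genes and 3 to 7 lower growth genes. It gave log2 differences of -4.29 to -1.99 for Csa6G518000, -4.70 to -2.76 for Csa3G646010, -3.74 to -2.10 for Csa6G517220, -1.56 to -0.99 for Csa6G154500 and -1.02 to -0.73 for Csa3G149950. Outside the members, Csa1G569400 and Csa4G638320 lost their call without any 1 mutant library or without wild type library 2, and Csa4G638320 also without wild type library 3 and against library 1 alone. With a pseudocount of 0.1, the lists given shared 2 of the 5 nearest genes of Csa6G518000, 3 each of those of Csa3G646010, Csa6G154500 and Csa3G149950, and 4 of those of Csa6G517220. After median-of-ratios scaling they shared 3 each for Csa6G154500 and Csa3G149950 and 4 each for the other members, so the neighbours depend on both choices.

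The replicate number as a block left all 5 members called and gave 1104 lower and 288 higher genes. Same-numbered libraries did not deviate together (correlations across genes of -0.09, -0.04 and -0.18 for numbers 1 to 3), so the numbers were not treated as pairs. Every gene had been selected on this contrast, so the p-values are not those of an unselected transcriptome, and unknown depth limits the low values, such as those of Csa3G646010 in the mutant.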
